A study of Ginkgo biloba with 15 samples.

Results

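MicroRNAs (miRNAs) were compared between November and September embryos of Ginkgo biloba, a gymnosperm tree. The comparison covered the miRNA names with 10 or more counts in at least 3 of the 9 small-RNA libraries of the series. Of 361 listed names 145 reached that minimum, and names with the same 9 counts were taken once, which left 132 distinct rows of counts. These comprised 119 known miRNAs, named after the plant in which each sequence was catalogued, and 13 predicted ones. Known rows with the same miR number were added into 34 families, of the 65 families listed, and 19 of the 34 consisted of a single row. The third-largest count of a name was at least 10 inside the minimum and at most 9 outside it.

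The series followed embryo development and dormancy with 15 libraries from 3 collection months, of which 9 were small-RNA libraries. The November group was 3 libraries from embryos collected in November 2015, and the September group was 3 libraries from embryos collected in September 2015. A further 3 libraries from embryos of February 2016 entered the count minimum, the estimate of the spread between libraries and the contrast of library numbers, and their levels are not compared here. All embryos came from healthy trees at Yangzhou University that grew without a labelled treatment, and embryo is the labelled organ. The labels leave unsaid whether libraries within a month represent separate trees, seeds or pools of embryos. Every p-value is thus set by the spread among libraries, and that spread may be technical. The table names miRNAs only, so the labelled organ could not be checked against marker genes. Libraries are called by month and number here, as in November 1.

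Plant miRNAs are short RNAs cut from hairpin transcripts by a Dicer-like enzyme and loaded into an Argonaute protein. They guide cleavage or translational repression of messenger RNAs with a closely matching site. In embryos and seeds of other plants the conserved families act largely on transcription factors that set organ polarity, growth, auxin response and developmental phase. Embryos of Ginkgo are known to be small when the seeds ripen in autumn and to go on growing afterwards.

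The November libraries held 1269029, 90008 and 961558 counts under miRNA names, against 476060, 221070 and 714761 in the September libraries. With names of identical counts taken once, the 132 rows held 99.9% or more of the counts in each library. Normalised CPM below (counts divided by the library total and a TMM scaling factor, on the usual CPM scale) need not add up to the same sum in each library. A count of 0 allowed up to 3 counts, which is 2.37 CPM of unscaled total in the deepest library, November 1, and 33.6 CPM in the shallowest, November 2. That limit covers counting error only.

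Library number separated the libraries more than month did. The median absolute log2 ratio over the 132 rows was 0.55 between November 1 and September 1, 0.70 between November 2 and September 2, and 0.44 between November 3 and September 3. Within a month it was larger in each case, at 1.16, 1.97 and 1.62 between the November libraries and at 0.80, 1.27 and 1.45 between the September libraries. The first principal component of the 6 libraries, 75.4% of the variance, placed November 3 at 22.3 and September 3 at 20.5, and the other 4 libraries between −11.9 and −9.23. In both months the libraries numbered 3 thus stood apart from numbers 1 and 2. The month comparison was therefore made both unpaired and with the library number as a block, which compares November with September within each number.

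**Figure D1:**
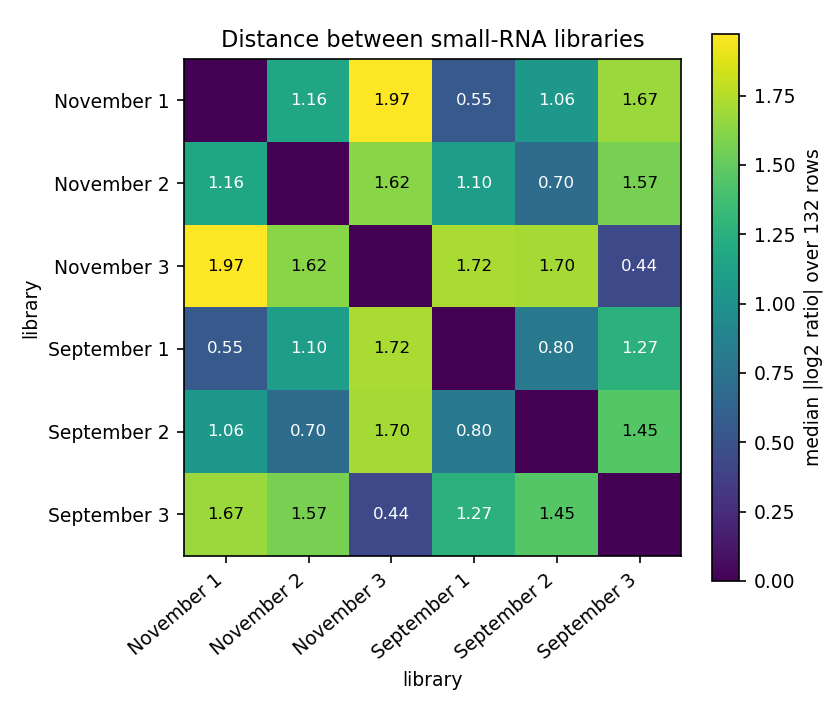
Median absolute log2 ratio of normalised counts over the 132 rows, for each pair of the 6 libraries, with November above and left of September. The cells for equal numbers in November and September (0.55, 0.70 and 0.44) are the lowest of each row off the diagonal, and cells that set number 3 against another number lie between 1.27 and 1.97.

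No miRNA row and no family passed the threshold between November and September. By edgeR's quasi-likelihood test with Benjamini-Hochberg adjustment, 0 of 132 rows and 0 of 34 families (0.0% of each) had an adjusted p under 0.05, unpaired and with the block. DESeq2 also called 0 rows and 0 families in both designs. At an unadjusted p under 0.05 edgeR had 2 rows and 0 families unpaired and 5 rows and 2 families with the block, and DESeq2 had 5 rows and 2 families in each design. Without regard to the test, 84 rows had a positive and 48 a negative log2 fold change unpaired, with a median of 0.13. The median over the 34 families was 0.45 with TMM factors, 0.64 with library totals alone and 0.18 with upper-quartile factors. Fold changes below are relative to 0, with TMM factors unless another setting is named. Their signs thus depend on the scaling and are to be read beside these medians.

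The width of the intervals sets what the absence of calls can show. Over the rows, the median distance from the estimate to the end of its 95% interval was 2.52 on the log2 scale unpaired and 1.43 with the block. Over the families it was 2.57 unpaired and 2.05 with the block. Unpaired, no row or family had an interval that lay within a 2-fold difference in either direction. With the block this was true of 0 rows and of 1 family, miR319. An interval within 4-fold was reached by 32 rows and 5 families unpaired, and by 65 rows and 11 families with the block. For the other rows and families a difference of 4-fold or more between November and September was not excluded at this depth and replication.

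**Figure D2:**
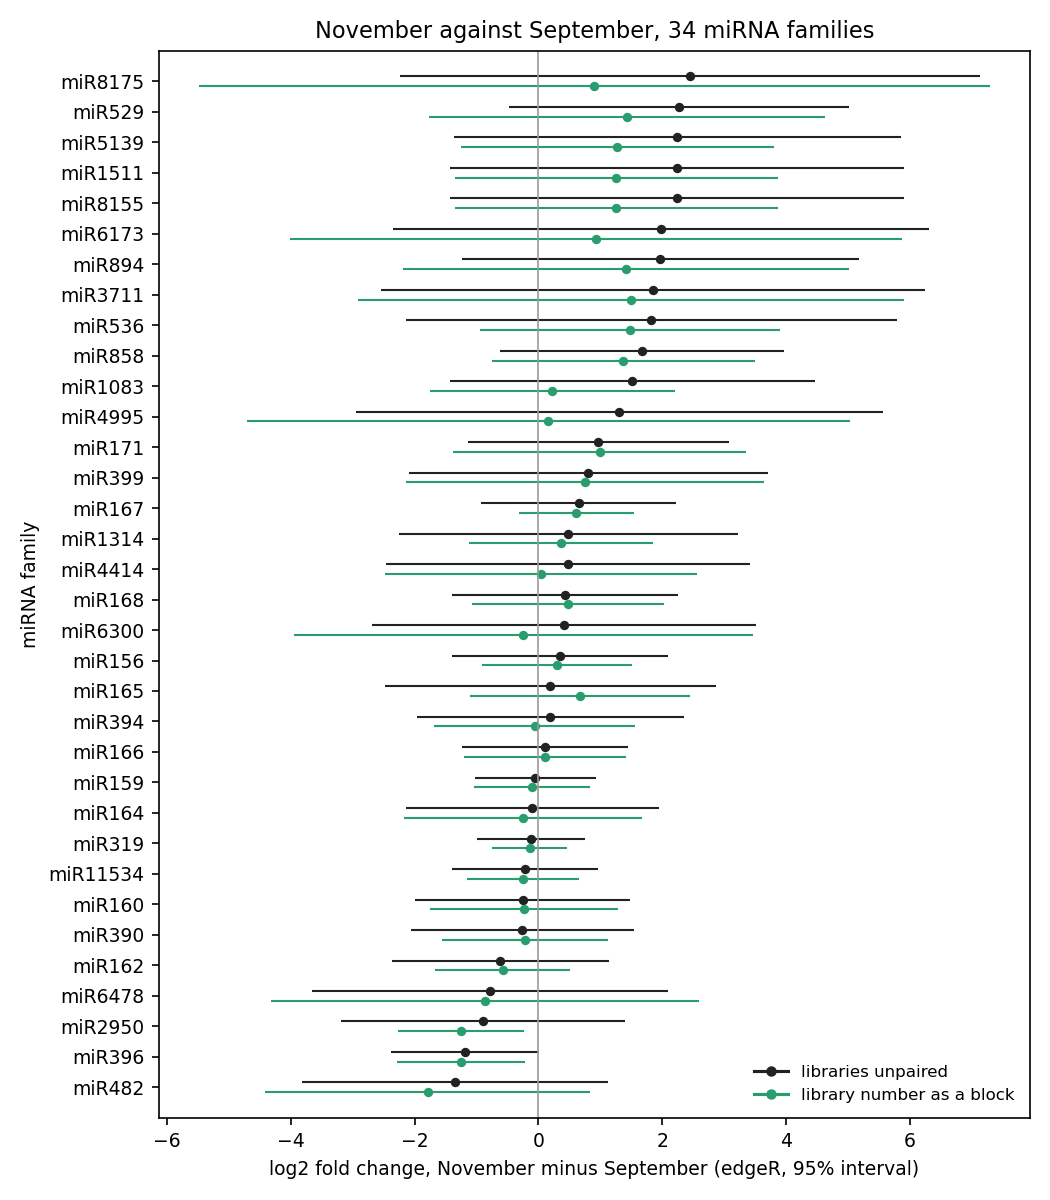
Log2 fold change of November minus September for the 34 families by edgeR, with 95% intervals, unpaired (black) and with the library number as a block (green), ordered by the unpaired estimate. In the unpaired fit every interval includes 0, and with the block those of miR396 and miR2950 exclude it, with neither past the adjusted threshold.

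The same 3 families led in both months. A family's share sums all its rows, and rows with nearly equal counts may list the same reads more than once. A share of counts thus need not be a share of reads. The miR159 family, which targets MYB transcripts of the gibberellin response in other plants, held 51.0%, 36.6% and 47.9% of counts in the November libraries, against 47.7%, 47.4% and 46.4% in the September libraries. The November libraries lay on both sides of the September ones, and the means were 45.2% ± 7.59 in November and 47.2% ± 0.711 in September (SD, n = 3 each). The log2 fold change was −0.05 unpaired (95% interval −1.03 to 0.93) and −0.10 with the block, and its sign turned, to 0.076, when February was left out of the fit. In bulk embryo RNA, fewer cells of a type and less RNA per cell cannot be told apart, here and in each family below.

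The miR166 family targets class III homeodomain-zipper transcripts, which set the upper side of leaves and the shoot apex in other plants. It held 34.9%, 25.4% and 31.8% of counts in the November libraries, against 32.5%, 18.3% and 31.4% in the September libraries. The November value was the higher one in 3 of 3 pairs of equal number, and the groups overlapped. The log2 fold change was 0.10 unpaired (95% interval −1.24 to 1.44) and 0.10 with the block, where upper-quartile factors gave −0.028. One scarce row, gma-miR166m, had 60, 9 and 45 counts in November, against 32, 12 and 240 in September, where September 3 alone was high. The closely related miR165, a single row, had 37, 5 and 142 counts in November, against 6, 4 and 114 in September.

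The miR319 family, which targets TCP transcripts that restrain cell division in leaves of other plants, held 6.40%, 17.0% and 13.6% of counts in the November libraries, against 8.05%, 15.6% and 13.6% in the September libraries. The difference within each pair was smaller than the spread within either month. Its log2 fold change was −0.12 unpaired (95% interval −1.0 to 0.75) and −0.14 with the block (95% interval −0.75 to 0.46). With the block, this was the narrowest interval of any family. Together miR159, miR166 and miR319 held 92.2%, 78.9% and 93.3% of counts in November, against 88.2%, 81.4% and 91.4% in September, with the libraries numbered 2 lowest in both months.

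**Figure D3:**
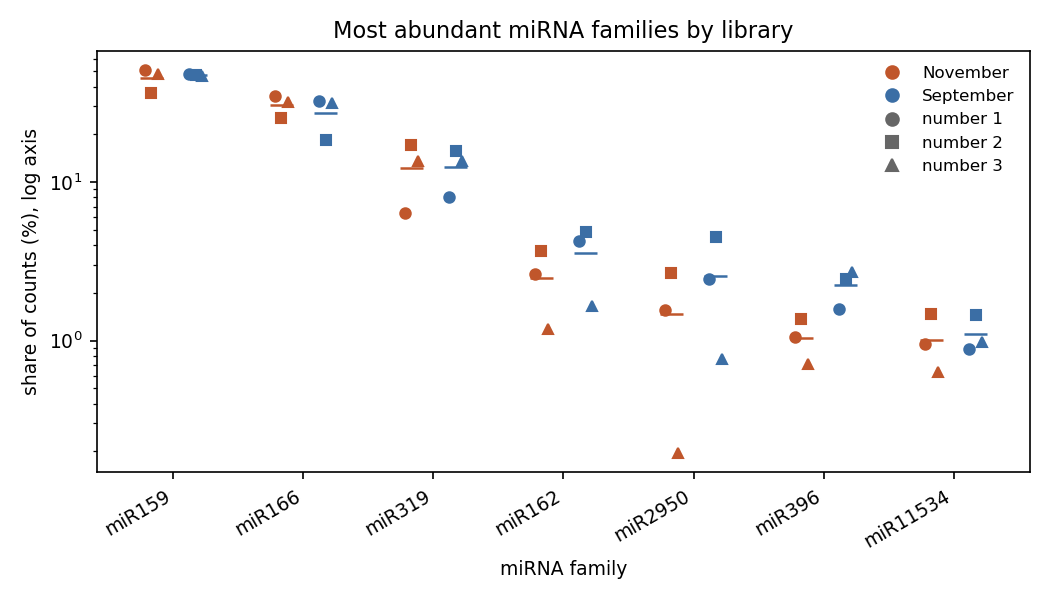
Share of counts (percent, log axis) of the 7 families with a mean of at least 1%, with November (orange) left of September (blue), marker shape for the library number and a line at the mean. The groups do not overlap for miR396, where all 3 November libraries lie below the September ones, and they overlap for the other 6 families.

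The miR396 family was the 1 family of 34 whose normalised levels did not overlap between the months. Full separation of 3 libraries from 3 has an exact two-sided permutation p of 0.1, so separation alone cannot establish a difference. miR396 targets transcripts of growth-regulating factors, which promote cell division in leaves and other young organs of other plants. The family had 14393, 8634 and 8219 normalised CPM in the November libraries, against 21080, 18540 and 31330 in the September libraries. All 3 November values were below all 3 September values. The means were 10415 ± 3451 CPM in November and 23650 ± 6771 CPM in September (SD, n = 3 each). Within the pairs the log2 ratio was −0.55, −1.10 and −1.93.

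For miR396 the log2 fold change was −1.18 unpaired (SE 0.53, 95% interval −2.38 to 0.01, edgeR adjusted p = 0.86). With the block it was −1.25 (SE 0.43, 95% interval −2.28 to −0.22, edgeR adjusted p = 0.42). It did not pass the threshold in either design, and with the libraries numbered 3 left out it was −0.78 unpaired and −0.83 with the block. As a share of counts miR396 took 1.06%, 1.36% and 0.709% in November, against 1.59%, 2.45% and 2.70% in September. Among the 34 families the shares of 3 (8.8%) did not overlap between the months, those of miR396 and miR482 lower and that of miR168 higher in November. Each had an exact two-sided permutation p of 0.1, the smallest that 3 libraries against 3 can give, and an adjusted p of 0.94 over the 34 families.

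The 14 rows of miR396 differed among themselves. A negative unpaired fold change was found for 13 rows. By normalised CPM, 5 rows were lower in November in 3 of 3 pairs, and 4 rows had no overlap between the months. These 4 were ath-miR396a-5p, ath-miR396b-5p, vvi-miR396a and vvi-miR396b, catalogued in Arabidopsis (ath) and grapevine (vvi). Several of the 14 rows may list the same reads, such as gma-miR396b-3p and ptc-miR396e-3p with 107 and 106 counts in November 3. Their shared sign is thus not separate evidence. By normalised CPM 6 of all 132 rows had no overlap, 5 of them lower and 1 higher in November. On that scale 19 rows were lower and 31 higher in November in 3 of 3 pairs.

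The most abundant row, ath-miR396b-5p, had 4460, 2989 and 2557 normalised CPM in November, against 7439, 7324 and 12723 in September. All November values were below all September values. Its log2 fold change was −1.46 unpaired (SE 0.58, edgeR adjusted p = 0.99) and −1.51 with the block (SE 0.52, edgeR adjusted p = 0.89). With the libraries numbered 3 left out the values were −0.99 and −1.02. Counts of vvi-miR396b were nearly equal to these in every library, at 4457, 2982 and 2548 normalised CPM in November against 7422, 7314 and 12639 in September, so both names may list the same reads.

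The other pair of names without overlap in normalised CPM was less abundant. vvi-miR396a had 322, 319 and 289 normalised CPM in November, against 525, 504 and 1026 in September. ath-miR396a-5p had 281, 255 and 333 normalised CPM in November, against 452, 421 and 994 in September. September 3 was the highest library for all 4 rows, and September 1 and September 2 lay close together. The log2 fold change was −1.14 for vvi-miR396a and −1.10 for ath-miR396a-5p unpaired (edgeR adjusted p = 0.99 for each). By share of counts both of these rows overlapped between the months. ath-miR396a-5p took 0.0206%, 0.0403% and 0.0287% in November, against 0.0340%, 0.0556% and 0.0856% in September.

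Rows of miR396 outside these 4 overlapped between the months in normalised CPM. The 5p row csi-miR396e-5p, catalogued in orange, had 2121, 453 and 216 normalised CPM in November, against 2082, 797 and 161 in September. Number 1 was highest and number 3 lowest in both months. ama-miR396-3p, from the other arm of the hairpin, had 424, 942 and 1447 normalised CPM in November, against 884, 1135 and 2120 in September, and was lower in November in 3 of 3 pairs. The share of miR396 counts on ath-miR396b-5p was 31.0%, 34.6% and 31.1% in November, against 35.3%, 39.5% and 40.6% in September. It was the only 1 of 14 within-family measures without overlap (exact two-sided permutation p = 0.1, the smallest possible; adjusted p = 1.0 over the 14).

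**Figure D4:**
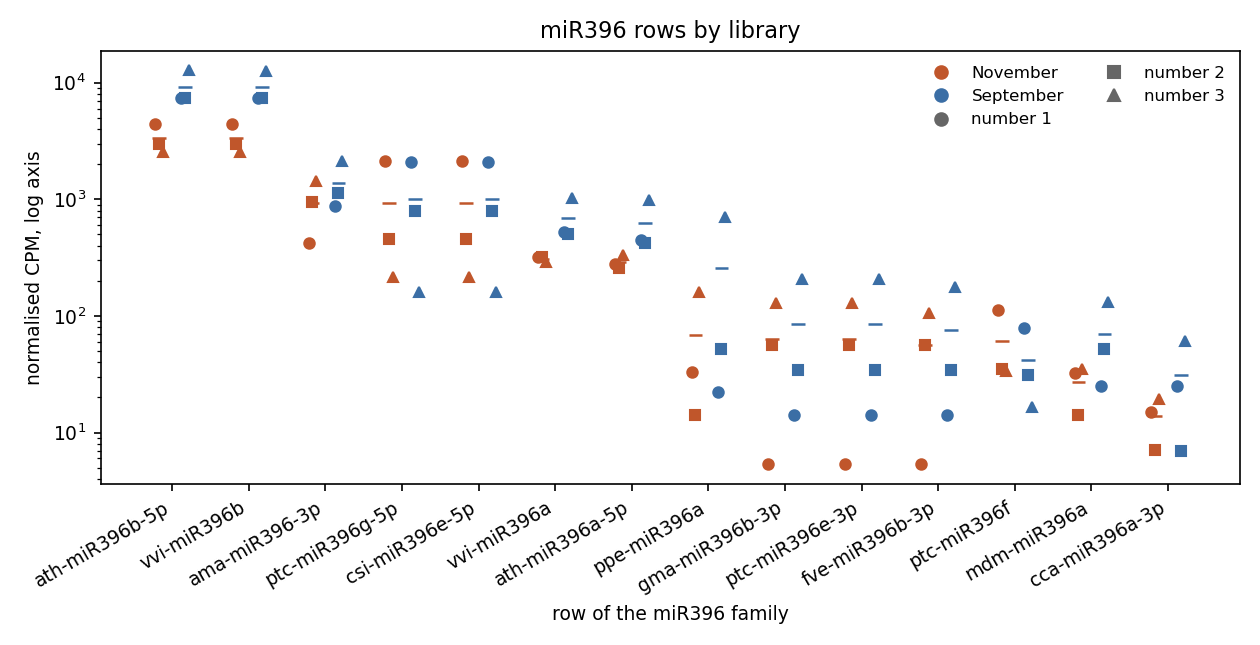
Normalised CPM (log axis) of the 14 miR396 rows in each library, with November (orange) left of September (blue), marker shape for the library number and a line at the mean. In ath-miR396b-5p, vvi-miR396b, vvi-miR396a and ath-miR396a-5p all 3 November libraries lie below the September ones, and in the other rows the months overlap.

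Of the 34 families 8 were lower and 4 higher in November in 3 of 3 pairs by normalised CPM. The lower ones were miR160, miR162, miR319, miR390, miR396, miR482, miR2950 and miR6478, and the higher ones miR166, miR168, miR536 and miR894. By share of counts, which needs no scaling factor, miR160, miR319 and miR390 were lower in 2 of 3 pairs only.

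The miR2950 family consisted of 2 rows. It had 21208, 16872 and 2266 normalised CPM in the November libraries, against 32279, 33893 and 8833 in the September libraries. The groups overlapped because both libraries numbered 3 were low. The log2 ratio was −0.61, −1.01 and −1.96 in pairs 1, 2 and 3. For the family the log2 fold change was −0.89 unpaired (SE 1.02, edgeR adjusted p = 0.86) and −1.25 with the block (SE 0.43, 95% interval −2.26 to −0.23, edgeR adjusted p = 0.42). With the libraries numbered 3 left out it was −0.80 unpaired and −0.81 with the block.

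Both miR2950 rows had the same direction. vvi-miR2950-5p had a log2 fold change of −1.37 with the block (SE 0.53, edgeR adjusted p = 0.96), and pab-miR2950a, catalogued in Norway spruce, one of −1.18 (SE 0.51, edgeR adjusted p = 0.98). miR11534, a single row, had 12858, 9272 and 7368 normalised CPM in November, against 11730, 11013 and 11456 in September. September varied little and November lay on both sides of it, with a log2 fold change of −0.21 unpaired (95% interval −1.39 to 0.97).

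Families that act on the miRNA machinery itself had estimates of opposite sign. miR162, which targets the transcript of the Dicer-like enzyme in other plants, had 35518, 23410 and 13724 normalised CPM in November, against 56069, 36529 and 19104 in September. It was lower in November in 3 of 3 pairs, though November 1 was close to September 2 and the groups overlapped. Its log2 fold change was −0.62 unpaired (95% interval −2.37 to 1.13, edgeR adjusted p = 0.89) and −0.58 with the block.

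miR168, which targets an Argonaute transcript in other plants, was scarce, at 154, 12 and 148 counts in November, against 55, 18 and 63 in September. As a share of counts it took 0.0122%, 0.0134% and 0.0155% in November, against 0.0116%, 0.00820% and 0.00890% in September, without overlap. Its log2 fold change was 0.43 unpaired (SE 0.81, edgeR adjusted p = 0.91) and 0.47 with the block. miR403, also in this list, was not analysed here.

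Auxin-response families gave 0 calls of 3 that passed the minimum. miR167, which targets auxin response factors that activate transcription in other plants, had 4912, 9980 and 15875 normalised CPM in November, against 5163, 4081 and 10384 in September. November 2 and November 3 were above their partners, and pair 1 differed by −0.07 on the log2 scale. The log2 fold change was 0.65 unpaired (95% interval −0.93 to 2.22, edgeR adjusted p = 0.86) and 0.61 with the block, and all 9 of its rows had a positive one. Several of these rows may list the same reads, such as ath-miR167a-5p and vvi-miR167c with 1389 and 1381 counts in November 3. Their shared sign is thus not separate evidence.

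miR160, which targets auxin response factors that repress transcription, had 668, 375 and 627 normalised CPM in November, against 839, 431 and 719 in September. miR390, which starts the production of small RNAs against further auxin response factors, had 1723, 574 and 926 normalised CPM in November, against 2225, 707 and 927 in September. Within the pairs the log2 ratio was −0.33, −0.19 and −0.20 for miR160 and −0.37, −0.30 and −0.0025 for miR390. The months overlapped in both families, and neither passed the threshold. The median log2 fold change of the 3 families was −0.25 unpaired, against 0.45 over all families, and miR393, also in this list, was not analysed here.

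The families that target SPL transcripts, which control the passage from juvenile to adult growth in other plants, gave 0 calls of 2. miR156 had 637, 1558 and 2476 normalised CPM in November, against 901, 721 and 2048 in September, and the order of the months differed between pairs. miR529 had 44, 6 and 592 counts in November, against 31, 9 and 30 in September. Its unpaired log2 fold change of 2.28 (SE 1.22, edgeR adjusted p = 0.86) rested on November 3. With the libraries numbered 3 left out it was −0.39. Over both families the median was 1.31, against 0.45 over all families, and miR157 did not pass the minimum.

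The row zma-miR529-5p, catalogued in maize, showed this most sharply. It had 0, 0 and 255 counts in November, against 0, 0 and 17 in September, so that it was detected in neither month outside number 3. The 0 in November 2 still allows up to 33.6 CPM. The other row, ppt-miR529e, catalogued in moss, had 44, 6 and 337 counts in November, against 31, 9 and 13 in September.

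Families that act on NAC, GRAS and F-box regulators of meristems and organ boundaries were low throughout and gave 0 calls of 3. miR164, whose targets include NAC factors that separate cotyledons, had 49, 1 and 59 counts in November, against 17, 9 and 40 in September. miR171, which targets GRAS factors of the meristem, had 20, 7 and 91 counts in November, against 11, 12 and 13 in September. miR394, which targets an F-box transcript in the shoot apex, had 100, 68 and 479 counts in November, against 76, 114 and 256 in September. The months overlapped in each of them, and their median log2 fold change was 0.19.

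Of the families tied to phosphate, sulphate and copper supply only miR399 passed the minimum, with 51, 4 and 4 counts in November against 12, 3 and 4 in September. miR482, which targets resistance-gene transcripts in other plants, had 20, 2 and 3 counts in November, against 12, 6 and 28 in September. It was lower in November in 3 of 3 pairs, with a log2 fold change of −1.35 unpaired (SE 1.10, edgeR adjusted p = 0.86) and −1.79 with the block, and of −0.55 unpaired with the libraries numbered 3 left out. miR858, which targets MYB transcripts of flavonoid synthesis in Arabidopsis, had 8, 11 and 84 counts in November, against 4, 10 and 8 in September. Its log2 fold change of 1.67 unpaired (SE 1.02, edgeR adjusted p = 0.86) was 0.81 with the libraries numbered 3 left out. miR172, which targets AP2 transcripts, did not pass the minimum.

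Families catalogued first in gymnosperms or mosses varied with the library. miR1083 had 416, 609 and 11176 normalised CPM in November, against 1330, 569 and 2366 in September. miR1314 had 212, 1417 and 3213 normalised CPM in November, against 398, 476 and 2589 in September. miR536 had 34, 27 and 1 counts in November, against 9, 11 and 0 in September. The first 2 were highest in the libraries numbered 3 of both months and miR536 was lowest there. None of the 4 families of this list that passed the minimum, miR529 among them, was called between the months, and their median log2 fold change was 1.67 unpaired and 0.90 with the block.

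The names miR894, miR1511, miR5139 and miR6478 are doubtful as miRNAs. Among the 6 libraries their summed share was largest in November 2, the shallowest. Together they held 0.431%, 5.6% and 0.167% of counts in November, against 0.921%, 2.09% and 0.171% in September. Their median log2 fold change was 2.10 unpaired and 1.26 with the block, against 0.45 and 0.26 over all families, with 0 calls of 4. Unpaired, 3 of them had a positive and 1, miR6478, a negative value. The part of depth in these values was not tested. miR894 had 1222, 2099 and 916 counts in November, against 411, 656 and 608 in September. miR6478 had 3688, 1222 and 576 counts in November, against 3816, 3332 and 498 in September. By normalised CPM miR6478 was lower in November in 3 of 3 pairs, with an unpaired log2 fold change of −0.79. rgl-miR5139 had 184, 563 and 33 counts in November, against 47, 204 and 36 in September. Its sister row aof-miR5139b, with 177, 557 and 33 in November against 43, 203 and 34 in September, differed from it by few counts. The families miR1511 and miR8155 had nearly the same counts again, so these 4 rows may list the same reads. The median above may thus count the same reads under both miR1511 and miR5139.

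The 13 predicted miRNAs gave 0 calls, 8 with a positive and 5 with a negative unpaired fold change and a median of 0.09, against 0.13 over all rows. They held 0.487%, 2.84% and 0.685% of counts in November, against 0.823%, 2.15% and 0.60% in September. The most abundant, novel_3, had 1401, 1984 and 4727 counts in November, against 1628, 3340 and 2940 in September. novel_10 had 1730, 106 and 262 counts in November, against 704, 340 and 115 in September. In both of these the months overlapped.

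By normalised CPM novel_15 was the only 1 of the 132 rows that lay higher in all 3 November libraries than in any September library. It had 221, 177 and 294 normalised CPM in November, against 95.4, 86.3 and 153 in September, and the log2 ratio was 1.2, 1.04 and 0.94 within the pairs. Its estimate was 1.05 unpaired on the log2 scale (SE 0.67, 95% interval −0.46 to 2.56, edgeR adjusted p = 0.99) and 1.05 with the block (SE 0.61, edgeR adjusted p = 0.98), and 1.14 unpaired without the libraries numbered 3. novel_28, with 34, 7 and 4 counts in November against 7, 3 and 1 in September, was higher in 3 of 3 pairs, at 1.49 unpaired (SE 1.21, edgeR adjusted p = 0.99). novel_8 had 470, 779 and 771 normalised CPM in November, against 1605, 1066 and 1029 in September, with all November values below all September values. By share of counts the months overlapped, at 0.0345%, 0.123% and 0.0665% in November, against 0.121%, 0.141% and 0.0885% in September. The unpaired log2 fold change of novel_8 was −0.87 (SE 0.72, edgeR adjusted p = 0.99).

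Number against number, the same table gave many calls. In the fit with month and number, 59 of 132 rows (44.7%) and 8 of 34 families (23.5%) differed between number 3 and the mean of numbers 1 and 2 over all 9 libraries (edgeR, adjusted p under 0.05). The contrast was chosen because earlier results of these data had shown number 3 apart. Libraries of a number repeat over months only, so these p-values do not measure a spread over numbers. Of the 59 rows 43 were higher and 16 lower in number 3. DESeq2 called 67 rows, 39 higher and 28 lower, and with November and September alone edgeR called 71 rows, 37 higher and 34 lower, so the balance of directions depends on the fit.

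The 8 families included several that were described above for the months. In number 3 miR2950 was lower, at −2.75 on the log2 scale (SE 0.42, edgeR adjusted p = 0.013), and so were miR162, at −1.67 (SE 0.44, edgeR adjusted p = 0.032), and miR536, at −4.76. miR1083 was higher, at 2.90, as were miR4414 at 2.63, miR165 at 2.44, miR1314 at 2.43 and miR167 at 1.22 (edgeR adjusted p = 0.032 for each). miR159, miR166 and miR396 did not pass the threshold in this contrast as families, at −0.00 (95% interval −0.83 to 0.82), −0.11 (95% interval −1.30 to 1.08) and −0.18 (95% interval −1.08 to 0.71).

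Inside miR159 the names that held the reads differed between the numbers. The row osa-miR159f, catalogued in rice, had 93, 26 and 34250 counts in November, against 61, 38 and 24942 in September. It was 8.24 higher in number 3 on the log2 scale (SE 0.48, edgeR adjusted p = 2.79e-08). It and 6 further rows, ath-miR159a, ath-miR159b-3p, bdi-miR159a-3p, fve-miR159b, lus-miR159b and osa-miR159a.1, together held 0.0372%, 0.187% and 18.9% of miR159 counts in November, against 0.050%, 0.0912% and 18.8% in September. In November 3 osa-miR159f and bdi-miR159a-3p had nearly equal counts, 34250 and 34182. The rest of these rows lay between 3520 and 3594 there. The summed share may therefore count the same reads more than once.

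The leading row of the family showed the opposite. pta-miR159a, catalogued in loblolly pine, held 63.5%, 56.1% and 21.0% of miR159 counts in November, against 67.1%, 58.8% and 26.1% in September. Its share was lower in November in 3 of 3 pairs, by less than the spread between numbers. The next rows by abundance were highest in number 3. sof-miR159c, catalogued in sugarcane, had 65127, 26767 and 121180 normalised CPM in November, against 61811, 43660 and 97322 in September. pta-miR159c had 51697, 23197 and 86248 normalised CPM in November, against 48754, 37867 and 80692 in September. In miR319 the leading row ppt-miR319a held 54.9%, 72.3% and 7.96% of the family in November, against 59.3%, 52.6% and 38.3% in September. gma-miR166u, the leading row of miR166, held 19.7%, 19.6% and 18.7% of its family in November, against 19.9%, 19.9% and 18.1% in September. Its share was thus nearly the same in all 6 libraries. Other miR166 rows had nearly equal counts, such as vvi-miR166a and mtr-miR166b with 48397 each in November 1. Reads listed under several names may set this steady share, which was not tested. The cause of the difference between numbers was not tested, and the labels do not say what a number marks.

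**Figure D5:**
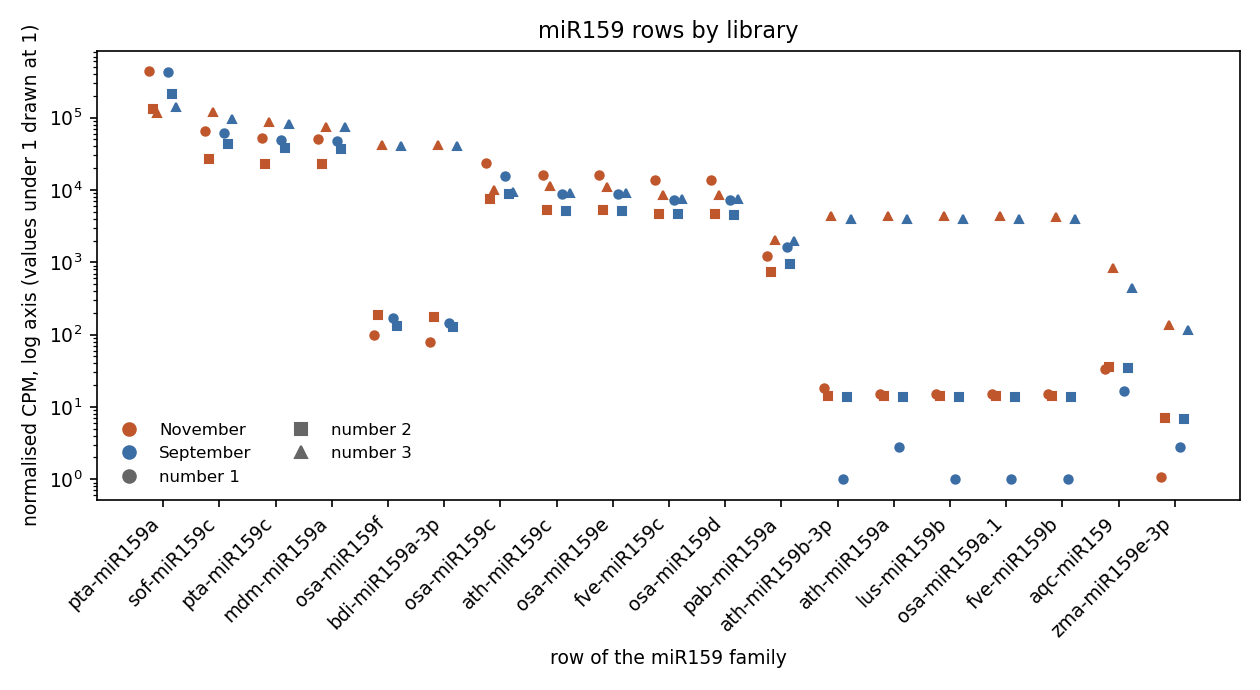
Normalised CPM (log axis, values under 1 drawn at 1) of the 19 miR159 rows in each library, with November (orange) left of September (blue) and marker shape for the library number. For the 7 rows summed in the text, osa-miR159f and bdi-miR159a-3p among them, the triangles of November 3 and September 3 lie far above the other libraries of both months. The rows aqc-miR159 and zma-miR159e-3p have the same pattern at lower levels.

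Ratios between families and between hairpin arms overlapped between the months too. The log2 ratio of miR159 to miR319 was 2.99, 1.10 and 1.82 in November, against 2.57, 1.60 and 1.77 in September. That of miR156 to miR529, which share SPL targets in other plants, was 3.74, 5.08 and 1.78 in November, against 3.35, 4.46 and 5.36 in September. The log2 ratio of 3p to 5p rows of miR390 was −5.41, −2.53 and 0.74 in November, against −4.97, −3.08 and −0.68 in September, with number 3 highest in both months. These values are measured inside a library and do not depend on the scaling between libraries.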

How the data were processed

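The authors deposited a table of read counts for each miRNA name and library, unnormalised per the file headers. Tools named in the submitters' processing notes, with no role stated, are Bowtie, HTSeq 0.6.1, TopHat2 2.0.12 and CASAVA 1.8. The rule that assigned reads to names, the mismatches allowed and the miRBase release were not given in the sources used here. Of the rows 11 carried more than 1 name, so a read can be listed under several names. All value columns of the table were mapped to a labelled library.

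Names reaching 10 counts in 3 or more of the 9 libraries were kept and identical rows were taken once. edgeR 4.0.16 in R 4.3.3 was run with TMM factors, glmQLFit and glmQLFTest on all 9 libraries with a coefficient per month. P-values were adjusted by Benjamini-Hochberg over all rows or all families, at a threshold of 0.05. Family counts are sums of rows, with the factors of the row fit. Pair ratios had 0.5 added to each count, and the principal components used log2 CPM with a prior count of 2. Shares and within-family measures were tested by exact permutation over the 6 libraries. The test scripts were tested on simulated data, with 40 of 132 rows changed in each of 20 draws. Unpaired, the row test called 0% of 2-fold and 0% of 4-fold changes. With the block it called 1.1% of 2-fold and 17.5% of 4-fold changes, so most changes of these sizes would be missed.

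The alternative fit had the library number as a block. Over 3 months, deviations from the month mean correlated at 0.358 to 0.903 across rows in all 9 same-number pairs (0.79 to 0.90 for November and September), above the 0.1 set as the rule, and at −0.85 to 0.80 in other pairs. Libraries of equal number were treated as pairs, from the values and the numbers in the labels, which do not say what a number marks.

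Other alternatives were DESeq2 1.42.0, other scaling factors, other filters, identical rows kept and libraries left out. Merging nearly identical rows (at most 5 counts or 10% apart) and combining the block with other choices were added after seeing the data. Named items were the families with a mean share of at least 1%, with an unadjusted p under 0.05 or in the role lists, the rows with the smallest p or the largest share, and the top predicted names. novel_8, csi-miR396e-5p and ama-miR396-3p, and the miR159 rows high in number 3, were chosen for mention once their values had been seen. Members and lists were chosen with earlier results of these data known.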

Additional observations from a re-analysis of the deposited data

How the results depend on the processing

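No row or family was called between November and September in any of 38 row fits and 42 family fits, with a smallest adjusted p per fit of 0.21 to 1.0 for rows and 0.12 to 0.99 for families. With intervals this wide, the absence of calls says little about stability. The November and September libraries of equal number were closest by their values, which was not so for February 2. The block, with 0 calls as without it, changed no call. Merging nearly identical rows left 108 rows, also with 0 calls. For number 3 against numbers 1 and 2, calls were 48 to 71 rows over 7 alternatives, against 59 of 132 (44.7%). The number of rows tested differed between these alternatives. The share called ran from 22.6% (66 of 292 rows, no filter) to 53.8% (71 of 132 rows, November and September alone).

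Of 1039 alternative values, 34 turned sign. November minus September turned to 0.076 for miR159 with only these months in the fit, to −0.028 for miR166 with upper-quartile factors and the block, and to −0.39 for miR529 without the libraries numbered 3 (−0.37 with the block). The cause of these was not tested. With 1 library left out at a time, the unpaired log2 fold change ran from −0.67 to 0.63 for miR159, −0.44 to 1.09 for miR166, −0.39 to 0.38 for miR319, −1.20 to 0.083 for miR162, −1.52 to 0.088 for miR2950, −0.60 to 0.51 for miR11534, −0.31 to 2.77 for miR529 and −1.28 to 0.22 for pab-miR2950a. With the block it ran from −0.38 to 0.41 for miR159, −0.24 to 0.54 for miR166, −0.22 to 0.46 for miR319, −0.54 to 0.25 for miR11534 and −0.35 to 2.38 for miR529. Without turning sign, miR168 ran from 0.059 to 1.23 unpaired and 0.15 to 0.90 with the block, miR167 from 0.19 to 1.15 and 0.33 to 0.95, miR482 from −2.01 to −0.52 and −2.27 to −0.35, and miR858 from 1.0 to 2.56 and 0.74 to 2.16. miR396 kept a negative value throughout, from −1.56 to −0.48 unpaired and from −1.51 to −0.75 with the block.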

Other observations

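The 216 names under the minimum held at most 0.112% of the counts of a November or September library. Of these, 54 had counts in at least 1 November library and 0 in all 3 September libraries, and 47 had the reverse. The highest count among them was 12 in November and 8 in September. Number 3 held 34 of the 54 in November and 37 of the 47 in September. No tested row was at 0 in all 3 libraries of either month.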
